A study of Rattus norvegicus with 13 samples.

Results

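The 6 genes described here, Pecam1, Emcn, Flt1, Rgs5, Adgrl4 and Tfpi, are genes of blood vessel cells, and they were followed across cultured skin-derived precursors (SKPs) of dorsal, facial and ventral origin and in mesenchymal stromal cells (MSCs). They were chosen by their measured values on these same arrays, among 14506 genes with a name, so their levels and differences are given as a description and carry no p-value. Each was matched by its symbol in the array's annotation, and each had 1 probe set. The cells came from adult Sprague Dawley rats and had the same number of passages. SKPs are dermal precursors that grow as spheres and share features with the neural crest. They were taken from dorsal trunk, ventral trunk and facial skin, with 3 isolates for each region that the series' design calls independent, and 4 isolates of MSCs were measured beside them. No treatment or genetic change is recorded for any group, and the tissue that the MSCs came from is not given in the sources used here. RNA of each isolate was hybridised to 1 Affymetrix Rat Gene 1.0 ST array.

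Endothelial cells line the vessel wall and hold to each other through junction proteins, and they respond to vascular endothelial growth factor (VEGF) through tyrosine kinase receptors. Pericytes wrap around capillaries from outside, share a basement membrane with the endothelium and are recruited by platelet-derived growth factor. Both kinds of cell are found in dermis, from which SKPs are grown. PECAM-1, the product of Pecam1, is an adhesion molecule at endothelial junctions that leukocytes and platelets carry as well. Emcn encodes endomucin, a sialomucin of capillary and venous endothelium, and Flt1 encodes VEGF receptor 1. Rgs5 encodes a regulator of G protein signalling that is a marker of pericytes. Adgrl4 (also called Eltd1) encodes an adhesion G protein-coupled receptor of vessels, and Tfpi encodes tissue factor pathway inhibitor, which blocks the start of coagulation.

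Start site sequences were set beside 3 members that were high in ventral SKPs, to show what lies in front of genes that shared this pattern. Each window runs from 250 bases before to 50 bases after the start of the gene in RefSeq's annotation of rat assembly GRCr8, is 300 bases long and is read on the gene's strand, which is the plus strand for these 3. The Emcn window is chr2:228564289-228564588, the Flt1 window is chr12:12333180-12333479 and the Rgs5 window is chr13:84380827-84381126. Capitals mark matches on either strand to short motifs. AGGAAG was searched as an ETS core, since several ETS factors act in endothelium. CCGGAAG was searched as another form of that core. AGATAA stood for GATA factors. The SOX motif was ACAATG, and for the TATA box TATAAA was used.

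Emcn: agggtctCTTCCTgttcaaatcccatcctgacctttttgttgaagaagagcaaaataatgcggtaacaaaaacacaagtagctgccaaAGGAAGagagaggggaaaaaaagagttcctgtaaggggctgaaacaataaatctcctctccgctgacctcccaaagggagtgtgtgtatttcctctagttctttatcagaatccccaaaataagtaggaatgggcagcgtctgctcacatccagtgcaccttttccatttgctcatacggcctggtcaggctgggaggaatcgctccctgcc

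Flt1: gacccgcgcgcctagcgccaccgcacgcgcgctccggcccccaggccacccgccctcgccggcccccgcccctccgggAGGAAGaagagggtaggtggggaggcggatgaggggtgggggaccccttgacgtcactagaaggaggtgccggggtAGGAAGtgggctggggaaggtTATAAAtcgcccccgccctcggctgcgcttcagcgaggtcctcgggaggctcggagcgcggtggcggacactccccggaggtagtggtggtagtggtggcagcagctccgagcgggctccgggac

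Rgs5: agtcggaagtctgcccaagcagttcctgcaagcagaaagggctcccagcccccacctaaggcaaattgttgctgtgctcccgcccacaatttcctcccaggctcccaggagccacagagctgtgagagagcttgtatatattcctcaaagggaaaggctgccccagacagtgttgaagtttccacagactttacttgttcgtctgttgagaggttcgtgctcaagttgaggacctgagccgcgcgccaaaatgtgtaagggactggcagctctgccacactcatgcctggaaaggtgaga

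AGGAAG occurred at 2 places in the Emcn window, 1 of them on the minus strand, where it reads as its reverse complement, and at 2 places in the Flt1 window, which also held TATAAA. The Rgs5 window held none of the 5 motifs. AGGAAG is common: 34.5% of all 33469 promoter windows in the table held it. CCGGAAG was present in 8.7% of them, AGATAA in 11.6%, ACAATG in 13.2% and TATAAA in 14.2%. The Adgrl4 window on chromosome 2 held none of the motifs. Tfpi, on chromosome 3, had 2 windows, and 1 of these held AGGAAG and ACAATG while the other held none. Pecam1 lies on chromosome 10. These matches describe the letters of the windows and were not set against binding data.

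Levels are deposited log2 values made with RMA, so a difference of 1 is a 2-fold difference. A mean is given ± the SD between isolates (3 per SKP region, 4 of MSCs), and levels of different genes are not compared, because each probe set has its own scale. Background was taken as the 95th percentile of the group means of 213 olfactory, vomeronasal and taste receptor genes, and it came to 3.75 for the dorsal group, 3.58 for the facial, 3.42 for the ventral and 3.64 for the MSC group. Differences come from one limma fit of the 4 group means over all 13 arrays, with the standard error (SE) of that fit. A gene was called in a comparison where its adjusted p was under 0.05 over all 14506 genes.

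Some arrays stood apart, and this bears on the results below. The 24 macrophage and leukocyte genes of a marker list had a mean level of 9.93 on facial array 3, 7.66 on facial array 1 and 7.07 on dorsal array 1, against 4.18 to 4.74 on the MSC arrays and 5.19 to 5.496 on the ventral arrays. Ptprc (CD45, the pan-leukocyte phosphatase) stood at 5.77 to 7.59 on facial arrays 1 and 2 and higher still on facial array 3, and at 4.43, 4.96 and 5.30 on the ventral arrays. The MSC arrays fell into 2 pairs, as seen in Mcam (CD146, a surface protein of mural and endothelial cells), which stood at 6.32 and 6.71 on MSC arrays 1 and 2 and at 10.56 and 11.09 on MSC arrays 3 and 4. Dorsal array 3 had the highest Vegfa level, 10.49, with 7.69 to 8.87 on all others. It also had the lowest mean of 12 dermal fibroblast and stromal genes, 9.25. That mean was 10.45 to 11.02 on the other SKP arrays and 9.54 to 10.53 on the MSC arrays. Because RNA was taken from whole cultures, fewer cells of a type and less RNA per cell cannot be told apart in any of these values.

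Pecam1 was high on the ventral arrays alone. Its level was 3.47, 3.62 and 3.49 on the dorsal arrays, 3.46, 3.02 and 4.31 on the facial arrays, 6.65, 5.43 and 6.50 on the ventral arrays, and 4.05, 3.29, 3.65 and 3.28 on the MSC arrays. All 3 ventral arrays lay above every other array, and no dorsal array exceeded background. The ventral mean of 6.19 ± 0.66 was 2.60 (log2) above the facial mean of 3.60 ± 0.65 and 2.63 ± 0.33 (SE) above the MSC mean of 3.57 ± 0.37. Just 1 of 3 facial arrays and 2 of 4 MSC arrays exceeded background, so both differences rest partly on values at background. Against dorsal SKPs, whose mean of 3.53 ± 0.08 was not above background, ventral Pecam1 was at least 5.44-fold higher, taking the background as the dorsal level. The dorsal, facial and MSC means lay within the spread of their arrays. The highest value outside ventral SKPs, 4.31, was that of facial array 3, the array with the highest macrophage and leukocyte level. Within regions Pecam1 deviated with that marker mean at r = 0.541 over 9 SKP arrays, and at r = 0.132 without facial array 3. Most of the dorsal and facial values of Pecam1 in that correlation were not above background. On the ventral arrays the marker mean of 5.19 to 5.496 lay above all MSC arrays and dorsal arrays 2 and 3, and below all facial arrays. The part of leukocyte RNA in the Pecam1 signal was not tested.

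Emcn was above background on the ventral arrays alone. It stood at 2.95, 3.30 and 2.84 on the dorsal arrays, 2.71, 3.31 and 3.07 on the facial arrays, 5.65, 4.85 and 5.92 on the ventral arrays, and 2.96, 3.15, 3.44 and 2.66 on the MSC arrays. No array outside ventral SKPs exceeded its group's background, and all 3 ventral arrays did. Ventral Emcn, at 5.48 ± 0.56, was therefore at least 3.31-fold higher than in dorsal SKPs, at least 3.72-fold higher than in facial SKPs and at least 3.57-fold higher than in MSCs. The dorsal mean was 3.03 ± 0.24, the facial mean 3.03 ± 0.30 and the MSC mean 3.05 ± 0.33, and these have no order because they lie at background.

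Rgs5, the pericyte marker, was above background on all 13 arrays and highest in ventral SKPs. The dorsal arrays gave 4.44, 4.53 and 3.99, the facial arrays 4.06, 4.60 and 4.01, the ventral arrays 5.75, 5.29 and 6.29, and the MSC arrays 4.40, 4.20, 4.99 and 4.83. The lowest ventral array lay above the highest MSC array, so the ventral group did not overlap with any other. Its mean of 5.77 ± 0.50 exceeded that of MSCs (4.61 ± 0.37) by 1.17 ± 0.26 (SE). The dorsal mean of 4.32 ± 0.29 differed from it by -1.45 and the facial mean of 4.22 ± 0.33 by -1.55. The 3 lower groups overlapped one another.

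Flt1 also had its highest mean in ventral SKPs, with a wide spread elsewhere. Its values were 5.06, 6.39 and 4.84 on the dorsal arrays, 5.46, 6.28 and 5.97 on the facial arrays, 6.75, 7.75 and 7.23 on the ventral arrays, and 3.90, 4.49, 5.23 and 6.26 on the MSC arrays. Every ventral array lay above all other arrays, by a margin that was small against dorsal array 2, facial array 2 and MSC array 4. The ventral mean was 7.25 ± 0.50, the facial mean 5.90 ± 0.41, the dorsal mean 5.43 ± 0.84 and the MSC mean 4.97 ± 1.02, and the last 3 overlapped. The difference of facial from ventral SKPs was -1.34 and that of dorsal from ventral SKPs -1.82, and neither was called. The ventral difference from MSCs, 2.28 ± 0.52 (SE), depended on which MSC arrays it was set against, being 3.06 with MSC arrays 1 and 2 alone and 1.501 with MSC arrays 3 and 4 alone. For dorsal SKPs minus MSCs, Flt1 was at 1.24 with the first pair and at -0.32 with the other.

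**Figure D1:**
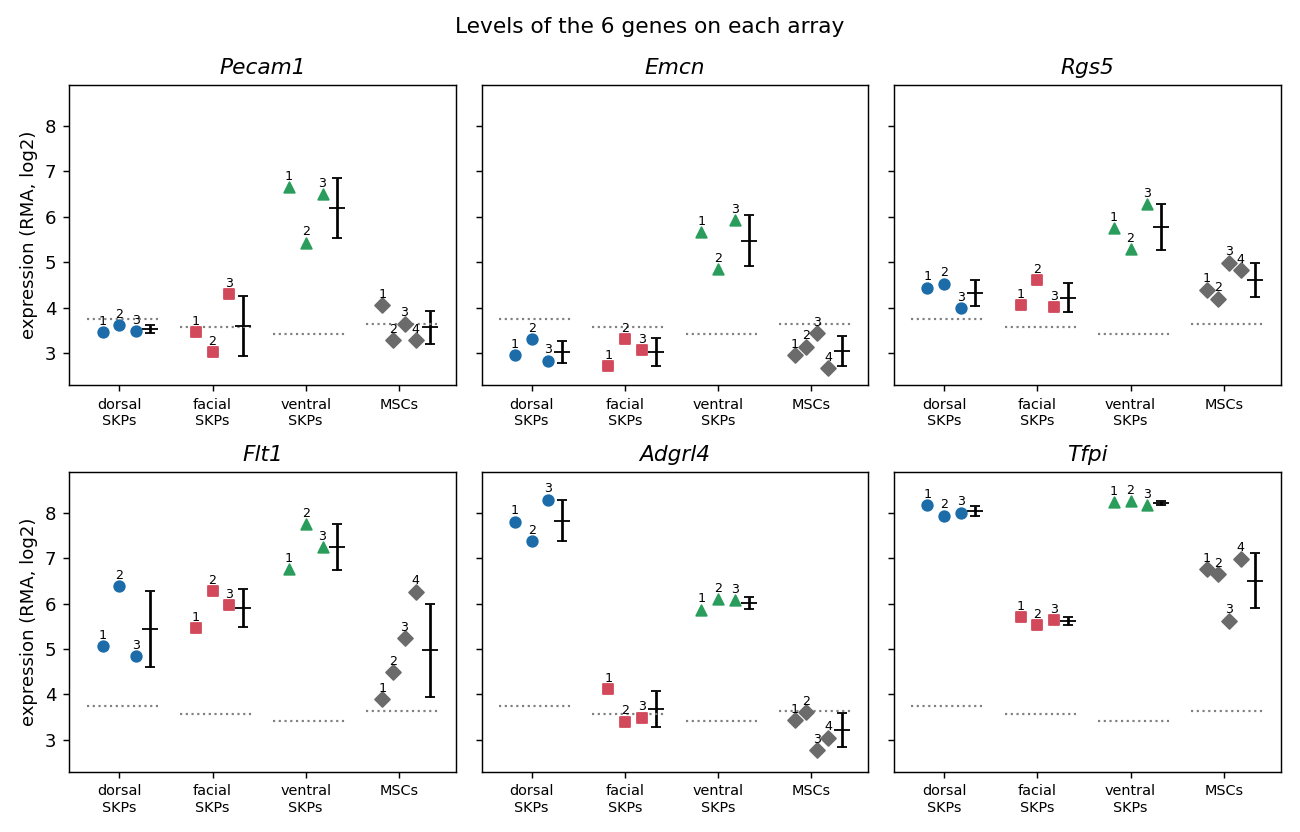
Level of each gene (RMA, log2 axis) on every array, numbered by isolate, in dorsal, facial and ventral SKPs (n = 3 each) and MSCs (n = 4). Bars show the mean and SD of a group and dotted lines the background of that group. The 3 ventral arrays lie above all others for Pecam1, Emcn, Rgs5 and Flt1, while the dorsal arrays are highest for Adgrl4 and the facial arrays lowest or among the lowest for Tfpi.

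Adgrl4 had a different pattern, in which both trunk regions were high and dorsal SKPs the highest. The dorsal arrays stood at 7.80, 7.38 and 8.29, the ventral arrays at 5.87, 6.10 and 6.08, the facial arrays at 4.13, 3.40 and 3.49, and the MSC arrays at 3.43, 3.62, 2.78 and 3.05. Dorsal, ventral and facial arrays did not overlap in any pair of regions, whereas facial and MSC arrays did. The dorsal mean of 7.82 ± 0.45 was 1.81 ± 0.27 (SE) above the ventral mean of 6.02 ± 0.13, and the facial mean of 3.67 ± 0.39 lay close to background, with 1 of 3 arrays above it. Relative to MSCs, which were not above background at 3.22 ± 0.38, Adgrl4 was at least 18.2-fold higher in dorsal SKPs and at least 5.19-fold higher in ventral SKPs.

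Tfpi shared the split between trunk and face but not the step between dorsal and ventral skin. Its level was 8.16, 7.93 and 8.002 on the dorsal arrays, 8.24, 8.25 and 8.16 on the ventral arrays, 5.70, 5.53 and 5.63 on the facial arrays, and 6.75, 6.65, 5.63 and 6.99 on the MSC arrays. The trunk arrays lay above all facial and MSC arrays, and MSC array 3 fell among the facial arrays. The ventral mean was 8.22 ± 0.05 and the dorsal mean 8.03 ± 0.12, a difference of dorsal from ventral SKPs of -0.18 ± 0.27 (SE) that was not called. The facial mean of 5.62 ± 0.09 differed from the dorsal mean by -2.41 ± 0.27 and from the ventral mean by -2.60 ± 0.27. It also lay below the MSC mean of 6.50 ± 0.60, with a difference of -0.89 ± 0.25, although the arrays of these groups overlapped.

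Set side by side, the comparisons gave the following counts of called members, which the choice of the genes had already used and from which nothing is read. In ventral SKPs against MSCs all 6 were higher and none lower, with 13% of all genes called higher and 11.4% lower, and the median difference of the 6 was 2.35 beside -0.04 for all genes. In dorsal SKPs against MSCs 2 were higher (Adgrl4 and Tfpi) and none lower, with 8.77% and 7.76% of all genes called. In facial SKPs against MSCs none was higher and 1 lower (Tfpi), with 9.47% and 9.58% called. For the mean of the 3 regions against MSCs 5 were higher and none lower, with 13.1% and 12.2% called, and Rgs5, at 0.17, was the one not called. These 4 comparisons share the MSC arrays.

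Between regions, facial minus dorsal SKPs had no member called higher and 2 called lower (Adgrl4 and Tfpi), where 0.793% of all genes were called higher and 0.462% lower. Facial minus ventral SKPs had none higher and 5 lower, all but Flt1, where 2.25% and 4.36% were called. Dorsal minus ventral SKPs had 1 higher (Adgrl4) and 3 lower (Pecam1, Emcn and Rgs5), where 2.35% and 3.76% were called. The median difference of the members was -0.05, -2.39 and -1.64 in these 3 comparisons, beside -0.04, 0.01 and 0.05 for all genes. Each region enters 2 of the 3 comparisons.

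The 6 genes thus did not follow one pattern over the groups. Pecam1, Emcn, Rgs5 and Flt1 were highest in ventral SKPs with the other groups overlapping, while Adgrl4 and Tfpi were high in both trunk regions. Whether they also varied together among isolates of a region was read from each array's deviation from the mean of its region. Differences between regions enter any correlation over the pooled values. Over the 9 SKP arrays these deviations correlated at r = 0.877 for Emcn with Rgs5, and between 0.798 and 0.926 when any 1 array was left out. Emcn was at background on the 6 dorsal and facial arrays, so its deviations there are those of a signal not above background. The largest deviations of both genes were on ventral arrays 2 and 3, at -0.63 and 0.45 for Emcn and -0.48 and 0.51 for Rgs5. For Pecam1 with Emcn r was 0.50, and it was -0.145 without ventral array 2. For Pecam1 with Rgs5 r was 0.155 and ranged from -0.528 to 0.571 with 1 array left out. Flt1 had r = -0.299 with Pecam1, 0.167 with Emcn and 0.223 with Rgs5, and Adgrl4 had r = 0.436 with Tfpi and -0.683 with Flt1. Adgrl4 also had r = -0.579 with Emcn, -0.479 with Rgs5 and -0.17 with Pecam1. For Tfpi r was -0.594 with Emcn, -0.58 with Flt1, -0.447 with Rgs5 and 0.013 with Pecam1. All of these are descriptions over 9 arrays, whose genes share an array's RNA and its normalisation.

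Ventral array 2 was the lowest of the 3 ventral arrays for Pecam1, Emcn and Rgs5 and the highest for Flt1, while for Adgrl4 (6.10 against 6.08 on the next ventral array) and Tfpi (8.25 against 8.24) it was higher by little. Of the 59 other endothelial genes described below, 34 (57.6%) were also lowest on that array, as were 16 of 28 pericyte and mural genes (57.1%). So were 11 of 24 macrophage and leukocyte genes (45.8%), against 29.4% of all genes, and 37.1% of all genes were highest on it. The mean level of the 59 endothelial genes was 5.96 on ventral array 2 and 6.09 and 6.13 on the other ventral arrays.

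**Figure D2:**
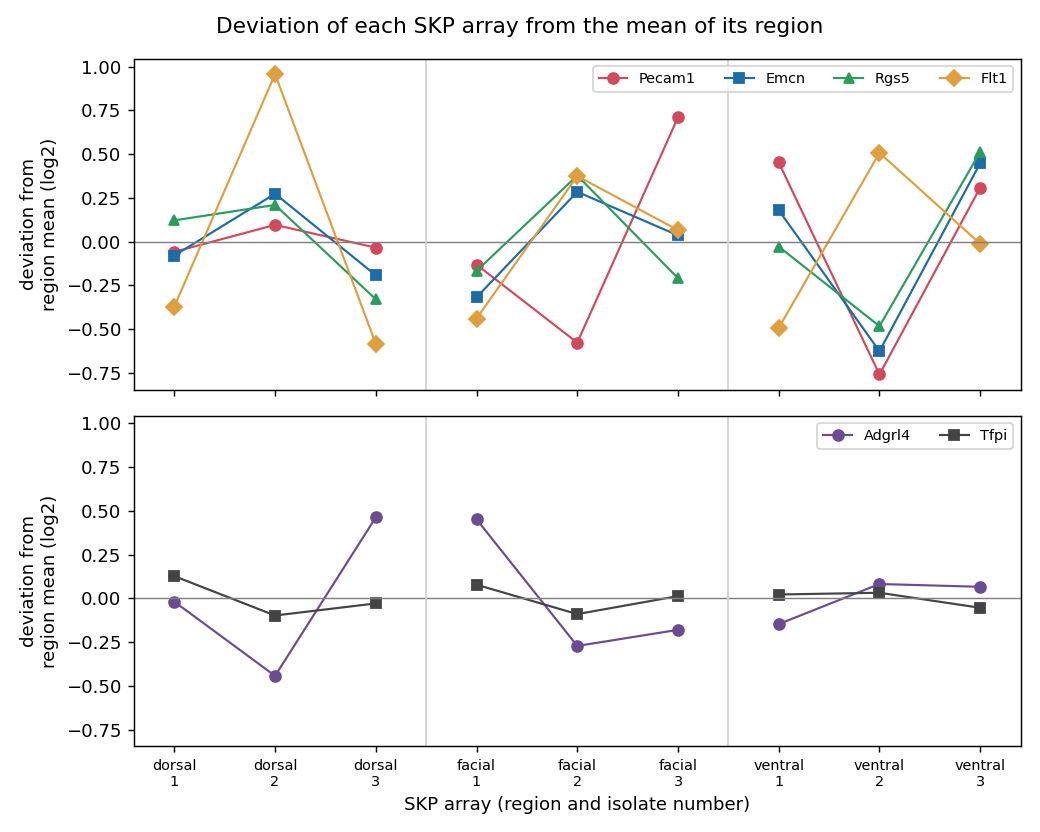
Deviation of each SKP array from the mean of its region (log2), for the genes highest in ventral SKPs (upper panel) and for Adgrl4 and Tfpi (lower panel). Lines join arrays of one region for reading only. On ventral array 2 Flt1 lies above its mean and Pecam1, Emcn and Rgs5 below theirs.

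The other genes of the endothelium were taken from lists of junction and surface genes, VEGF and angiopoietin ligands and receptors, and transcription factors, with the members left out. Of 65 genes 59 were measured, and Vwf was not analysed here. In ventral SKPs 16 rose and 5 fell against MSCs, which is 27.1% and 8.47% of the measured genes beside the 13% and 11.4% of all genes above, and their median difference was 0.06. In dorsal minus ventral SKPs 1 was higher and 12 were lower (20.3%, beside 3.76% of all genes), with a median of -0.29. In facial minus ventral SKPs 2 were higher and 7 lower (11.9%, beside 4.36%), with a median of -0.07. Without ventral array 3, 5 endothelial genes were called in dorsal minus ventral SKPs in place of 13 and 4 in facial minus ventral SKPs in place of 9, and without ventral array 1 these counts were 6 and 5.

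Cdh5, which encodes VE-cadherin of the endothelial junction, stood at 4.99, 4.87 and 4.65 on the ventral arrays and at 3.64 to 4.02 on the 10 others. It was 1.03 ± 0.10 (SE) higher in ventral SKPs than in MSCs (adjusted p = 3.58e-05), and facial and dorsal SKPs differed from ventral SKPs by -1.10 (adjusted p = 0.000292) and -0.92 (adjusted p = 0.000927). Kdr, VEGF receptor 2, stood at 5.31, 4.57 and 5.19 on the ventral arrays and at 3.29 to 3.82 elsewhere. No MSC array exceeded background, and ventral Kdr was at least 2.61-fold higher than in MSCs (adjusted p = 6.09e-05). Facial and dorsal SKPs were at -1.31 (adjusted p = 0.00222) and -1.45 (adjusted p = 0.00131) relative to ventral SKPs, with 2 of 3 facial and 1 of 3 dorsal arrays above background. Ventral SKPs thus lay above all other arrays for both genes. Both belong to a fixed set of markers named whatever their values, as do Tek, Erg and Cldn5 below. That set was written with earlier results of these data known.

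Sox18, a transcription factor of endothelial and lymphatic development picked after its values were seen, had the same shape. It stood at 5.18, 4.74 and 5.40 on the ventral arrays and 3.18 to 3.82 on the rest. No dorsal or facial array exceeded background, so ventral Sox18 was at least 2.56-fold higher than in dorsal SKPs (adjusted p = 0.000792) and at least 2.88-fold higher than in facial SKPs (adjusted p = 0.000565). Its difference from MSCs, of which 2 of 4 arrays exceeded background, was 1.57 ± 0.18 (SE, adjusted p = 9.04e-05). Nos3, endothelial nitric oxide synthase and also picked after its values were seen, was at -0.69 ± 0.15 in facial minus ventral SKPs (adjusted p = 0.0167) and at -0.73 ± 0.15 in dorsal minus ventral SKPs (adjusted p = 0.0138). These calls of Nos3 were lost without ventral array 1 or without ventral array 3, with adjusted p up to 0.0807, and the first also without facial array 2. In a fit of dorsal and ventral arrays alone the adjusted p of the second was 0.0828. Both comparisons share the ventral arrays. Tek, Erg and Cldn5 were not called between ventral SKPs and another region. Tek, the angiopoietin receptor, had a facial minus ventral difference of -0.39 ± 0.46 (adjusted p = 0.688) and a dorsal minus ventral difference of -0.97 ± 0.46 (adjusted p = 0.243). Erg, an endothelial ETS factor, was at -0.72 ± 0.31 and -0.62 ± 0.31 in these comparisons (adjusted p = 0.201 and 0.282), and its ventral arrays lay above all dorsal and facial arrays without passing the test. Cldn5, a tight junction protein, had the same separation of arrays, with adjusted p-values of 0.0945 and 0.182. It was 0.34 ± 0.11 higher in ventral SKPs than in MSCs with an adjusted p of 0.0445, and this call was lost in 15 of 22 alternative settings.

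**Figure D3:**
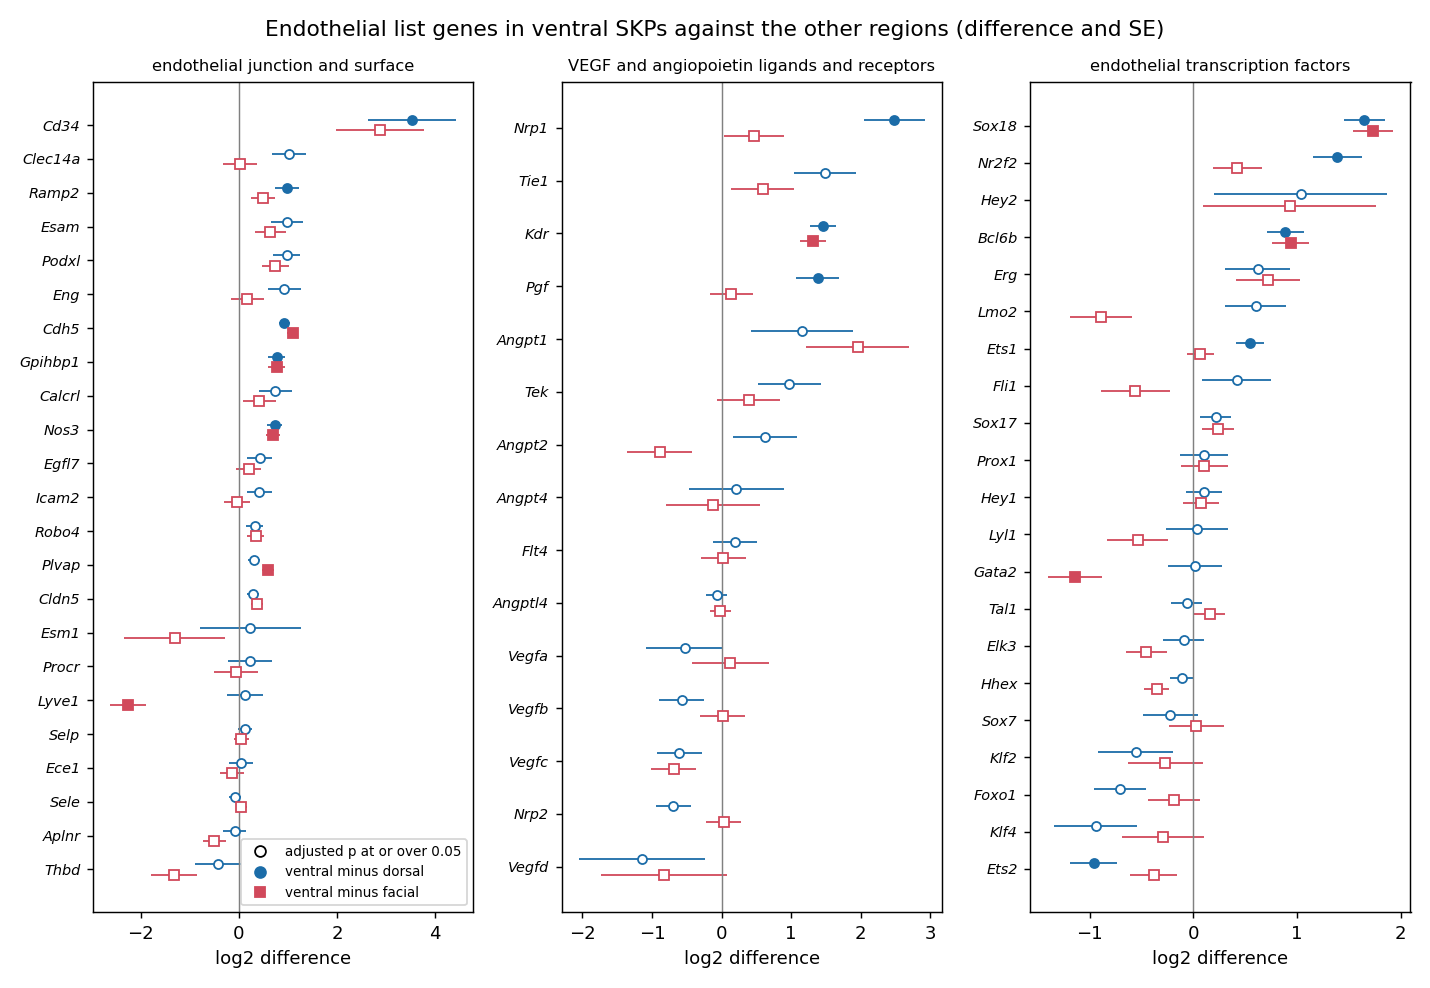
Log2 difference (with SE) of ventral SKPs from dorsal SKPs (circles) and from facial SKPs (squares) for the 59 measured endothelial genes by list. Filled symbols had an adjusted p under 0.05, and a value to the right of 0 is higher in ventral SKPs. Cdh5, Kdr, Sox18 and Nos3 are among the genes filled on the right in both comparisons, which share the ventral arrays.

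A second set of genes from the endothelial lists, which hold ligands as well, was high in SKPs of every region, unlike Pecam1 or Emcn. Clec14a, an endothelial lectin, stood at 6.81 ± 0.57, 7.81 ± 0.59 and 7.83 ± 0.23 in dorsal, facial and ventral SKPs and at 4.06 ± 0.43 in MSCs, a difference of the SKP mean of 3.43 ± 0.26 (SE, adjusted p = 2.3e-06). Calcrl, the receptor for adrenomedullin and calcitonin gene-related peptide, rose by 2.51 ± 0.24 (adjusted p = 1.88e-05). Angpt1, the ligand of Tek that mural cells make, rose by 3.48 ± 0.54 (adjusted p = 0.000569), and Lmo2 by 1.63 ± 0.22 (adjusted p = 0.000218). Klf2, a factor induced by flow in endothelium, had a difference of -2.48 ± 0.27 (adjusted p = 4.24e-05), and Egfl7, a secreted endothelial protein, one of -0.92 ± 0.19 (adjusted p = 0.00336, and 0.0666 with MSC arrays 3 and 4 alone). In all, 14 of 59 rose and 10 fell in SKPs against MSCs (23.7% and 16.9%, beside 13.1% and 12.2% of all genes), and without MSC array 2 there were 14 calls in place of 24.

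Further endothelial genes and ligands differed between groups. Cd34, carried by endothelium and by dermal stromal cells, stood at 8.82, 8.59 and 9.11 on the ventral arrays, at 5.75, 5.75 and 6.38 on the facial arrays and at 7.59, 5.75 and 2.58 on the dorsal arrays, so its ventral arrays were the highest as well. Its dorsal minus ventral difference of -3.53 ± 0.89 (SE) had an adjusted p of 0.039 and lost its call in 14 of 22 alternative settings. Lyve1, a hyaluronan receptor of lymphatic endothelium that tissue macrophages carry as well, was 2.25 ± 0.37 higher in facial than in ventral SKPs (adjusted p = 0.0042) and 2.38 ± 0.37 higher than in dorsal SKPs (adjusted p = 0.00863). The macrophage and leukocyte mean was 6.32 to 9.93 on the facial arrays, 4.18 to 7.07 on the dorsal arrays and 5.19 to 5.496 on the ventral arrays, and its part in the Lyve1 result was not tested. In a fit of facial and dorsal arrays alone the adjusted p of Lyve1 was 0.177. Pgf, placental growth factor, which binds the receptor that Flt1 encodes, was lower in SKPs than in MSCs, with a log2 difference of -1.30 ± 0.23 (adjusted p = 0.00124). Vegfa, the main ligand of both VEGF receptors, had a difference of -0.33 ± 0.41 (adjusted p = 0.623), and without dorsal array 3 its adjusted p was 0.00311.

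Of 28 measured pericyte and mural genes other than Rgs5, 2 rose (7.14%, beside 13.1% of all genes) and 9 fell (32.1%, beside 12.2%) in SKPs against MSCs, with a median difference of -0.52 beside -0.02 for all genes. In ventral SKPs against MSCs 3 rose (10.7%, beside 13%) and 5 fell (17.9%, beside 11.4%). The genes that fell with the largest differences were of the contractile apparatus: Tagln (transgelin) had a log2 difference of -7.41 ± 0.28 (SE, adjusted p = 1.67e-08), Cnn1 (calponin) one of -5.09 ± 0.50 (adjusted p = 2.07e-05) and Acta2 (smooth muscle actin) one of -4.34 ± 0.36 (adjusted p = 4.87e-06). Steap4, a metalloreductase, rose by 1.23 ± 0.29 (adjusted p = 0.00781, and 0.0802 with MSC arrays 3 and 4 alone).

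Pdgfrb, the receptor for platelet-derived growth factor, stood at 10.78 ± 0.46, 10.99 ± 0.24, 11.40 ± 0.20 and 11.22 ± 0.56 in dorsal, facial and ventral SKPs and MSCs (adjusted p = 0.646 for SKPs against MSCs). Cspg4, the NG2 proteoglycan, differed by -0.20 ± 0.16 (adjusted p = 0.42). Kcnj8 and Abcc9, the subunits of a potassium channel of pericytes, stood at 4.75 ± 0.40 and 5.16 ± 0.50 in ventral SKPs and at 4.23 ± 0.11 and 4.15 ± 0.21 in dorsal SKPs, with adjusted p-values of 0.118 and 0.124 for dorsal minus ventral. Against MSCs, where it stood at 5.30 ± 0.71, Abcc9 was called lower in dorsal SKPs (adjusted p = 0.0372), in facial SKPs (adjusted p = 0.0298) and in the mean of the regions (adjusted p = 0.0406), and these calls were lost in 11, 8 and 11 of 22 alternative settings. Enpep, the aminopeptidase A of pericytes, did separate ventral SKPs from both other regions, which overlapped each other. Its level was 10.92, 10.45 and 10.40 on the ventral arrays, 7.96 to 8.74 on the facial arrays and 7.15 to 8.56 on the dorsal arrays. Facial Enpep was at -2.30 ± 0.34 (SE) and dorsal Enpep at -2.59 ± 0.34 relative to ventral SKPs (adjusted p = 0.00249 and 0.0014). Between regions 3 pericyte and mural genes were lower in dorsal than in ventral SKPs and 3 in facial than in ventral SKPs (10.7% each, beside 3.76% and 4.36% of all genes), with none higher (beside 2.35% and 2.25%). In dorsal minus ventral SKPs 1 was called in place of 3 without dorsal array 1, without ventral array 1 or without ventral array 3. In facial minus ventral SKPs 11 were called in place of 3 in a fit of the facial and ventral arrays alone.

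Genes related to Tfpi, Rgs5 and Adgrl4 by family were counted as well. Of 25 coagulation and fibrinolysis genes, 10 rose in ventral SKPs against MSCs (40% beside 13% of all genes) and none fell, and 5 were lower in dorsal than in ventral SKPs (20% beside 3.76%). F5, coagulation factor V, stood at 8.11, 6.61 and 7.56 on the ventral arrays and at 4.83, 4.28 and 3.81 on the dorsal arrays, a dorsal minus ventral difference of -3.12 ± 0.66 (SE, adjusted p = 0.0187). F3, tissue factor, whose complex with factor VIIa the Tfpi product inhibits, had a difference in SKPs against MSCs of -1.496 ± 0.37 (adjusted p = 0.0108, and 0.191 with MSC arrays 3 and 4 alone). The call of F5 was lost without ventral array 1 or without ventral array 3 and under the replicate block, with adjusted p up to 0.0855. Serpine2, an inhibitor of thrombin and plasminogen activators, rose in SKPs by 2.36 ± 0.34 (adjusted p = 0.000319).

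Of 16 Rgs genes 1 rose and 1 fell in SKPs against MSCs (6.25% each, beside 13.1% and 12.2% of all genes). Rgs2 rose by 4.27 ± 0.25 (SE, adjusted p = 4.86e-07) and Rgs16 had a difference of -1.55 ± 0.11 (adjusted p = 1.32e-06), while Rgs5 was not called in that comparison. Neither gene had the ventral maximum of Rgs5: Rgs2 was highest in dorsal SKPs at 9.77 ± 0.46 and Rgs16 highest in MSCs at 6.88 ± 0.27. Of 16 adhesion G protein-coupled receptors 6 rose and 1 fell in SKPs against MSCs (37.5% and 6.25%, beside 13.1% and 12.2% of all genes). Adgrl3, a latrophilin, was opposite to Adgrl4 between dorsal and facial skin, being 2.38 ± 0.33 higher in facial than in dorsal SKPs (adjusted p = 0.0047) and at -2.13 ± 0.33 in dorsal minus ventral SKPs (adjusted p = 0.00421). Adgrf5, a receptor of lung and vessel endothelium picked after its values were seen, stood at 5.04, 4.55 and 5.43 on the ventral arrays and at 2.74 to 4.22 elsewhere.

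Markers of other cells that can carry these genes were measured on the same arrays. Of the 24 macrophage and leukocyte genes, 19 rose in facial SKPs against MSCs and none fell (79.2% higher, beside 9.47% of all genes), and 2 rose in ventral SKPs (8.33%, beside 13% of all genes: Cd68 and Cd53, the latter named after its values were seen). The call of Cd53 was lost in 9 of 22 alternative settings. The median ventral minus MSC difference of the 24 genes was 0.53, beside -0.04 for all genes. Lcp1, Ctss and Fcer1g, picked after their values were seen, were at 2.08, 2.06 and 1.70 without being called. For each, every ventral array lay above every MSC array. The fit shares its spread over all 4 groups, and Lcp1 had an SD of 2.485 dorsal, 1.65 facial, 0.54 ventral and 0.33 in MSCs. Other genes lay below 0, down to C1qa at -0.35. Cd68, a lysosomal protein of macrophages, stood at 9.07 ± 0.27 in ventral SKPs and 10.29 ± 1.27 in facial SKPs. The 5 measured platelet genes, whose cells carry PECAM-1 as well, had a mean level of 3.69 to 3.97 on the ventral arrays, 4.08 to 4.36 on the dorsal, 4.02 to 4.77 on the facial and 3.88 to 4.09 on the MSC arrays, and their part in the Pecam1 signal was not tested. The facial cultures, with the highest leukocyte marker level, had Pecam1 at 3.60 ± 0.65, and the ventral cultures, with a mean marker level of 5.19 to 5.496, had it at 6.19 ± 0.66. The chemokine receptor gene Ccr2 is not among the 24 markers and is named below as alike to Pecam1. It stood at 6.67 ± 0.46 in ventral SKPs and at 2.88, 2.999 and 3.005 in dorsal SKPs, facial SKPs and MSCs. The part of leukocyte RNA in the ventral Pecam1 level was not tested.

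**Figure D4:**
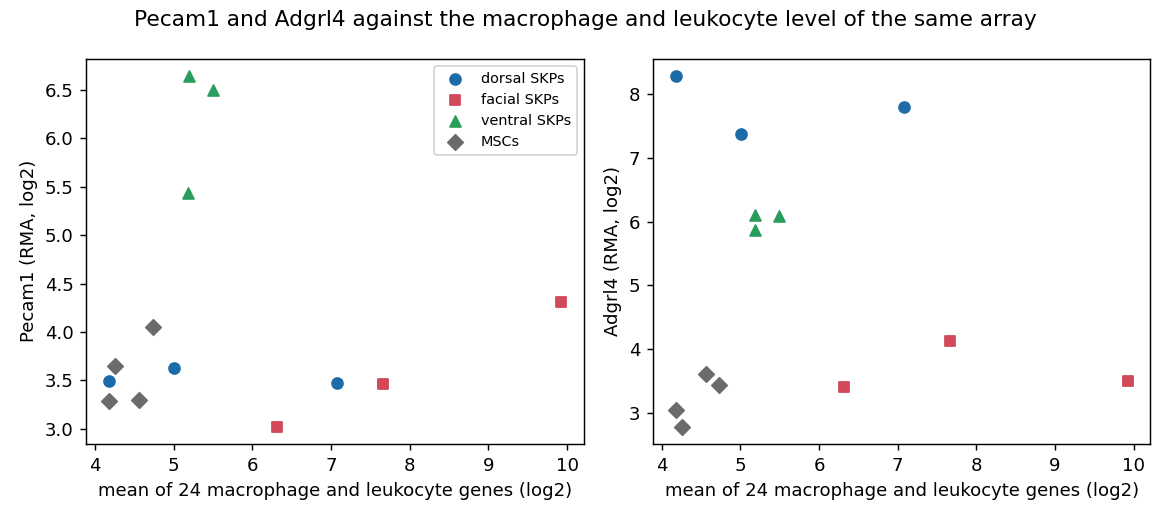
Pecam1 (left) and Adgrl4 (right), in RMA log2 units, against the mean log2 level of 24 macrophage and leukocyte genes on the same array, with 1 point per array. The ventral arrays have the highest Pecam1 at marker means of 5.19 to 5.496, and facial array 3, at 9.93, has Pecam1 at 4.31.

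The genes most like each member over the 13 arrays were found by Pearson r across all 14506 genes, as a description. For Pecam1 these were Col17a1 (0.964), Ccr2 (0.954) and Jam2 (0.951), and for Emcn they were Trim9 (0.978), Inka2 (0.978) and Ccr2 (0.963). Rgs5 was closest to Vstm2b (0.924), Dync1li1 (0.919) and Trim9 (0.917), so Pecam1 and Emcn shared Ccr2, and Emcn and Rgs5 shared Trim9. Flt1 was closest to Pex13 (0.918), Zdhhc18 (0.901) and Fbxl5 (0.90), Adgrl4 to Tes (0.938), Rab10 (0.936) and Capn12 (0.935), and Tfpi to Slc25a11 (0.893), Fbxo22 (0.883) and Zwint (0.882). The mean of the 6 members, each scaled to the same spread, was closest to Pdhb (0.945), Aqp8 (0.943), Anxa5, Cbln4 and Socs4 (0.936 each).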

How the data were processed

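Per the labels and the submitters' processing notes, the authors summarised each array to log2 levels of core genes by RMA in Affymetrix Expression Console. The notes also name limma, without versions. The log2 values entered as deposited, and array medians lay between 4.91 and 5.01. Of 29215 probe sets, 15310 carried 1 symbol. The 323 with several symbols and the 13582 unnamed here were left out, and of several probe sets of a gene the one with the highest mean was kept, leaving 14506 genes with no filter on low levels.

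For each gene the 4 group means were fitted on the 13 arrays (limma 3.58.1, R 4.3.3, lmFit, eBayes, two-sided, Benjamini-Hochberg over all genes), after a test on simulated data. P-values set a difference against the spread between isolates, which the fit shares over all 4 groups, and for arrays the number of isolates limits the precision. A fold is "at least" where no array of the lower group exceeded its background, which then replaced that group's values. The members, lists and the naming rule were chosen with earlier results of these data known. The rule named the members, up to 3 called genes per list and direction without overlap between SKP and MSC arrays (up to 2 per region difference), a fixed set of markers and the genes most alike; not all are printed. Deviations of same-numbered isolates correlated at r from -0.122 to 0.199 over 18 pairs, and 6 of the 13 arrays were closest to one of their own number. The main fit used no pairing by number, but these values cannot exclude that same-numbered isolates share an animal or a batch. Alternatives were an intensity trend, array weights, fits on the compared groups alone, a replicate block, a background filter, median centring, the mean over probe sets, leaving out each array, and the MSC pairs alone. The last was chosen after seeing the data.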

Additional observations from a re-analysis of the deposited data

Results flagged for a closer look

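Among the MSC arrays, 7 of the 88 genes examined had 1 array far from the other 3, and chance alone flags about 1 in 20 such groups. MSC array 4 was low for Angpt1, at 3.33 with the next array at 4.82, and for Klf2, at 8.04 with the next at 8.40. MSC array 2 was low for Steap4 (3.69, next 4.18), Cldn5 (4.34, next 4.62), Col17a1 (5.23, next 5.54) and Vstm2b (3.73, next 3.95). MSC array 3 was high for Erg, at 5.27 with the next at 4.21. None of the 6 members had such an array. Enpep stood above every MSC array on each ventral array, with a ventral mean of 10.59, and below every MSC array on each dorsal and facial array, with a dorsal mean of 8.003. This opposition relative to MSCs shares the MSC arrays, and as an opposition it was not tested. Against MSCs the ventral difference of Enpep was 1.22 ± 0.31 (SE), with an adjusted p of 0.0145 by limma that was 0.0692 without ventral array 1.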

How the results depend on the processing

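Over 22 alternatives, 916 of 924 member differences moved by less than the spread between isolates, and no called difference changed sign. Part of this count was fixed in advance. The intensity trend, the fits on the compared groups, the background filter and the mean over probe sets leave a member's difference as it was. So does leaving out arrays of a group that is not compared. The 8 that moved were Flt1 against MSCs with either MSC pair alone, and Flt1 in dorsal SKPs minus MSCs, which was not called, changed sign to -0.32 with arrays 3 and 4. Of 1540 values for named list genes, 156 lost their call and 10 gained one. All 14506 genes gave 3672 calls for SKPs minus MSCs, 2397 dorsal, 2762 facial and 3545 ventral minus MSCs, and 182, 958 and 886 for facial minus dorsal, facial minus ventral and dorsal minus ventral. Array weights gave 2441 and 1519 for the last pair, 15 endothelial genes in place of 9 and 5 pericyte and mural genes in place of 3 (facial minus ventral). Fits on the compared groups alone gave 1250 (dorsal minus MSCs), 43, 1932 and 373, with 11 pericyte and mural genes for facial minus ventral and 8 endothelial genes in place of 13 for dorsal minus ventral. The replicate block gave 106 for facial minus dorsal and 566 for dorsal minus ventral. With MSC arrays 1 and 2 alone 7 and 5 pericyte and mural genes were called in facial and dorsal minus ventral, and with arrays 3 and 4 alone 5 in facial minus ventral and 14 endothelial genes in place of 24 in SKPs minus MSCs. Leaving out 1 array gave 94 (without facial array 3) to 258, 390 (without ventral array 1) to 1416 and 327 (without ventral array 3) to 937 calls between regions, 14 to 26 (SKPs minus MSCs), 4 to 13 (facial minus ventral) and 5 to 13 (dorsal minus ventral) endothelial genes, and 1 to 4 pericyte and mural genes in dorsal minus ventral. The cause of these changes was not tested, except that fewer arrays entered the fits on part of the data.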
